A study of Mus musculus with 9 samples.

Results

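The 10 genes described here belong to the Hippo-YAP pathway: the co-activators Yap1 and Wwtr1, the DNA-binding partners Tead1 and Tead4, the secreted matrix proteins Cyr61 and Ctgf, the ankyrin repeat protein Ankrd1, and the regulators Amotl2, Lats2 and Ajuba. They were found by gene symbol in the count tables, which use the names Cyr61 and Ctgf. The annotation used for gene positions has their newer names, Ccn1 and Ccn2. All 10 of the 10 were present among the 32137 genes of the count tables and passed the filter on low counts. RNA came from sorted cells of differentiated bile duct organoids, which are three-dimensional cultures of biliary epithelium, all derived from 1 male mouse of mixed genetic background with the genotype Axin2CreERT2+/-; R26-LSL-tdTom+/-. In this genotype a tamoxifen-activated Cre recombinase is made where the Wnt target gene Axin2 is active, so the red reporter tdTom marks cells that expressed Axin2 while 4-hydroxytamoxifen was present, and it cannot mark cells whose Axin2 expression was too low to recombine the reporter.

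There were 3 groups of 3 libraries. All cultures had been differentiated for 11 days, and in the last 24 h all received 3 uM dexamethasone and 500 nM 4-hydroxytamoxifen. The untreated group held tdTom-negative cells of cultures without Rspo1. The other groups came from cultures given Rspo1 (R-spondin 1, a secreted amplifier of Wnt signals) at 100 ng/ml, sorted into tdTom-negative and tdTom-positive cells, here called Rspo1 tdTom- and Rspo1 tdTom+ cells. No group of tdTom-positive cells from cultures without Rspo1 was analysed here. Replicates 1, 2 and 3 of each group were taken at passages 5, 6 and 10 of the line. The p-values between groups thus describe spread between cultures of 1 animal.

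The Hippo pathway is a kinase relay. The kinases Mst1 and Mst2 (genes Stk4 and Stk3) activate Lats1 and Lats2, which phosphorylate the co-activators YAP and TAZ (genes Yap1 and Wwtr1) and keep them out of the nucleus. When the relay is low, YAP and TAZ enter the nucleus, bind TEAD proteins and switch on genes such as Cyr61, Ctgf and Ankrd1, and also Amotl2 and Lats2, whose products restrain YAP in return. In the liver, YAP is known for high activity in biliary cells and for control of organ size and regeneration. YAP and TAZ are controlled largely after translation, and the libraries measure transcripts only.

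Total counts per library ranged from 23423979 to 37351448, and the lowest count of a member in any library was 457. Axin2, the gene whose locus drives the Cre, had 43, 52 and 207 counts in the untreated libraries. In the 6 Rspo1 libraries it had between 1668 and 5521, so its counts separated the libraries by treatment label. Its level in Rspo1 tdTom+ cells, 106 ± 42.3 CPM (counts scaled to library size; SD, n = 3), did not differ beyond the spread from that in Rspo1 tdTom- cells, 88.7 ± 40.6 CPM (log2 fold change 0.26, SE 0.50, adjusted p = 0.733, edgeR). All 7 bile duct markers examined were detected. They summed to 8089 to 9968 CPM in untreated, 8148.5 to 9949.5 CPM in Rspo1 tdTom- and 6981 to 7155 CPM in Rspo1 tdTom+ cells. The Rspo1 tdTom+ range thus lay below both others. Single markers went both ways, with group means in this order of 3098, 2545 and 1486 CPM for Krt19 and 56.4, 117 and 140 CPM for Sox9. Of 7 hepatocyte markers, Cyp3a11 and Cps1 had at most 3 counts in every library, while Ttr, the carrier of thyroid hormone and retinol, had group means of 316, 407 and 250 CPM in untreated, Rspo1 tdTom- and Rspo1 tdTom+ cells, and Alb, or albumin, 12.9, 9.86 and 6.29 CPM. Apoa1 had 0.94, 0.54 and 0.34 CPM, and Cyp2e1 and Serpina1a had at most 7 counts in any library. The hepatocyte list, with Ttr its most abundant gene in each group, summed to 164 to 441, 268 to 545 and 204 to 312 CPM in these groups. The 4 immune markers summed to 8.35 to 22.2, 7.54 to 23.3 and 5.43 to 11.5 CPM, with the macrophage gene Cd68 the most abundant, and summed stromal and endothelial markers stayed at or below 0.95 CPM. The part of these cell types in the results was not tested. The Rspo1 tdTom- libraries stood apart in base composition. Across 17001 genes, Spearman's rho between the log2 fold change and the GC content of the longest transcript was 0.50 for Rspo1 tdTom- against untreated cells, -0.50 for Rspo1 tdTom+ against Rspo1 tdTom- cells and -0.01 for Rspo1 tdTom+ against untreated cells, and with transcript length it was -0.31, 0.31 and 0.01. Genes are not independent replicates and these values are descriptions. Results from the comparisons with Rspo1 tdTom- cells are therefore given with and without an offset for GC content and length.

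Matches to the TEAD motif were looked for upstream of the members, since TEAD proteins are the route by which YAP and TAZ reach DNA. Promoter windows of 300 bases (250 before and 50 after an annotated start, RefSeq, GRCm38.p6) were matched by symbol for 7 of the 10 members. The others are Ctgf, Tead1 and Tead4. The motif searched was GGAATG on either strand, which reads CATTCC on the gene's strand when it lies on the other. These members include known targets of YAP, TAZ and TEAD (Cyr61, Ankrd1, Amotl2 and Lats2), so the share with the motif is a description and not a test. Counted by window, 8 of the 9 windows of these members held the motif, against 14.7% of the 32851 windows of the table. The window without it was the second of Lats2, and each of the 7 members held it in at least 1 window. The 2 windows of Wwtr1 overlap and hold the same match. Ankrd1 and Ajuba held it at 2 places, against 1.36% of windows. The 9 matches are shown with 12 bases on each side, written 5′ to 3′ in the direction of the gene, with the motif in capitals and its distance from the start in bases.

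Cyr61, -103 (chr3:145650071-145650100, minus strand): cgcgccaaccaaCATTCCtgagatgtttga
Ankrd1, -210 (chr19:36120037-36120066, minus strand): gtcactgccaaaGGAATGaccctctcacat
Ankrd1, -123 (chr19:36119950-36119979, minus strand): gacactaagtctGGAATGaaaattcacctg
Amotl2, -65 (chr9:102717727-102717756, plus strand): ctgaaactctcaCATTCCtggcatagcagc
Ajuba, -186 (chr14:54577830-54577859, minus strand): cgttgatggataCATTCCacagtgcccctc
Ajuba, -164 (chr14:54577808-54577837, minus strand): tgcccctccgcgCATTCCaactgtaaacaa
Lats2, 4 (chr14:57746102-57746131, minus strand): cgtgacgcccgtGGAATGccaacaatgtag
Yap1, -141 (chr9:8004720-8004749, minus strand): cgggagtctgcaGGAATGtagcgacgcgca
Wwtr1, -136 (chr3:57576029-57576058, minus strand): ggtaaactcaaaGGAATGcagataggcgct

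The 6 letters were shared by all matches and the flanks were not. The 250 bases before the start of Cyr61, the member with the largest rise in Rspo1 tdTom+ cells, are printed in full (chr3:145649986-145650235, minus strand) because the single match there lies near the start.

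Cyr61 upstream: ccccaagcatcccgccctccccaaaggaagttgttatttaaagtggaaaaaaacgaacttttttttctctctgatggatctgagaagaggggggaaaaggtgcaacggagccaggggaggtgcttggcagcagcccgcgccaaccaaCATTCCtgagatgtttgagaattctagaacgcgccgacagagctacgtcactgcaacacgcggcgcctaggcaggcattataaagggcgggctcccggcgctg

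The motif TGANTCA of AP-1, the dimer of Fos and Jun proteins that often binds beside TEAD, was in none of the 7 members' windows and in 7.81% of all windows. The motif CTTTGA of TCF/LEF proteins, the DNA-binding partners of beta-catenin, was present for Wwtr1 and Amotl2 and in 16% of all windows. In Wwtr1 a TCF/LEF match on the other strand, at -141, overlapped the TEAD match at -136 by 1 base. A match is a description of the letters and was not tested for binding.

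**Figure D1:**
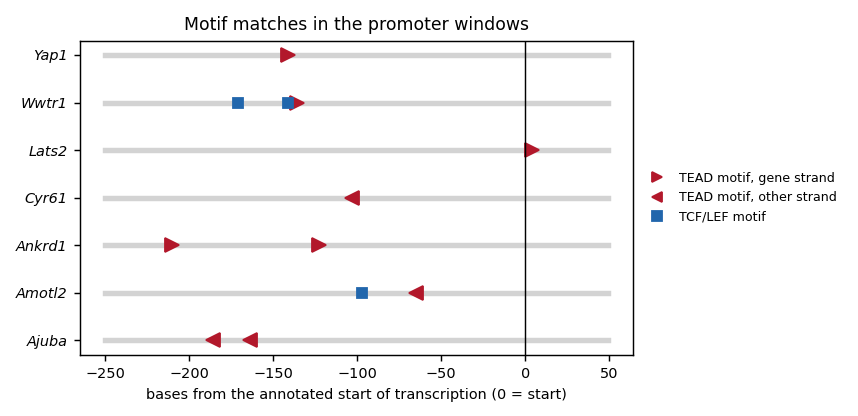
Positions of motif matches in the first promoter window of 7 members, on an axis of bases from the annotated start (0). Red triangles are TEAD motif matches and point right on the gene's strand and left on the other, and blue squares are TCF/LEF matches. Ankrd1 and Ajuba carry 2 TEAD matches each, and Lats2 carries its match just after the start.

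Levels of different genes were compared on the deposited FPKM scale, which allows for gene length and library depth. Ctgf, a secreted matricellular protein and classical YAP target, was the most abundant member in every group, at 730 ± 150 FPKM in untreated, 1025 ± 353 in Rspo1 tdTom- and 757 ± 257 in Rspo1 tdTom+ cells (SD, n = 3). Its mean over the 9 libraries ranked 54 of the 17011 genes tested, and its range lay apart from that of every other member. Ajuba, Ankrd1 and Cyr61 followed in an order that changed with the group. In untreated cells Ajuba (56.4 ± 4.22 FPKM) and Ankrd1 (53.4 ± 9.81) overlapped and Cyr61 was lower at 32.2 ± 5.47, whereas in Rspo1 tdTom+ cells Ankrd1 (86.6 ± 9.10) and Cyr61 (74.2 ± 13.5) overlapped and Ajuba was lower at 49.1 ± 4.06. Amotl2 and Yap1 overlapped in every group, at 21.3 to 25.0 and 17.1 to 21.6 FPKM as group means. The members at the bottom were Tead4, Wwtr1, Tead1 and Lats2. Lats2 was lowest in untreated (4.95 ± 0.248 FPKM) and Rspo1 tdTom+ cells (4.73 ± 0.425), and in Rspo1 tdTom- cells Tead1 (2.93 ± 0.559) and Lats2 (3.41 ± 0.551) overlapped at the lowest place.

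**Figure D2:**
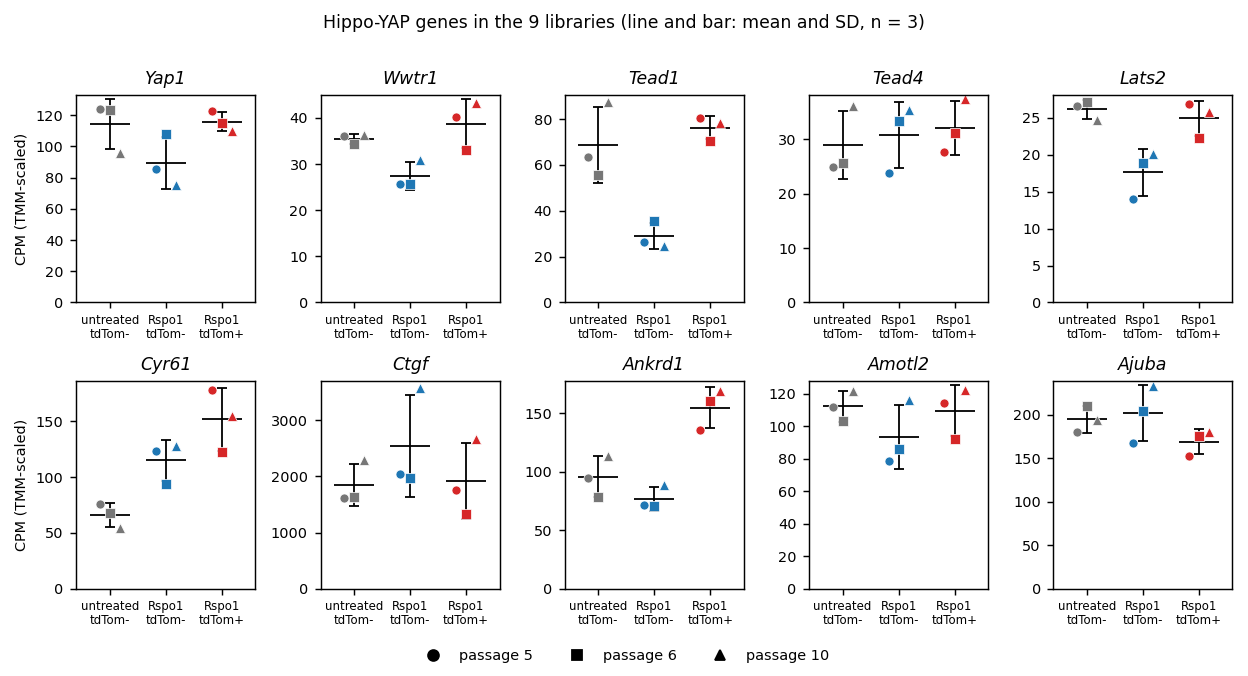
CPM of each member in the 9 libraries by group, each panel with its own axis from 0. Marker shape gives the passage, and the line and bar give mean and SD (n = 3). Tead1 is low in all 3 Rspo1 tdTom- libraries, Cyr61 is higher in the Rspo1 libraries than in any untreated one, and Ankrd1 is highest in the Rspo1 tdTom+ libraries.

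Within gene comparisons used CPM scaled by trimmed mean of M values (TMM) and the edgeR quasi-likelihood test with Benjamini-Hochberg adjustment over 17011 genes, and a call means an adjusted p under 0.05. Axin2 rose against untreated cells in both Rspo1 groups, by 5.13 log2 units in tdTom+ and 4.87 in tdTom- cells (adjusted p = 0.001 each, edgeR). The tdTom+ gate therefore does not single out the cells that responded to Rspo1 with Axin2 expression. Rspo1 tdTom+ against untreated cells compares reporter-marked cells of Rspo1 cultures with unstimulated cells. Of the 10 members, 2 rose, Cyr61 and Ankrd1, and the other 8 did not pass. Of all genes tested, 5.21% were called, 3.07% higher and 2.13% lower. Rspo1 tdTom- against untreated cells compares cells of the same sort gate with and without Rspo1. There Cyr61 rose and Tead1 and Lats2 fell, 3 of 10 members against 21.9% of all genes (8% higher and 13.9% lower). Rspo1 tdTom+ against Rspo1 tdTom- cells compares both sort gates of the same cultures, in which Tead1, Ankrd1, Wwtr1 and Lats2 were higher in the tdTom+ cells, 4 of 10 members against 24.3% of all genes (14.6% higher and 9.78% lower). The groups did not overlap for 2, 4 and 5 members in the 3 comparisons, and for 23.2%, 36.3% and 45.2% of all genes. With a passage block, 2 members rose in the first comparison, 1 rose and 4 fell in the second, and 5 rose in the third. The shares of all genes called were then 13.2%, 35.5% and 38.9%. With the GC and length offset, 2 members rose in the first, 2 fell in the second and 3 rose in the third. The shares were 6.66%, 8.8% and 8.53%. With both, 2 rose in the first, 1 rose and 4 fell in the second, and 6 rose in the third. The shares were 17.2%, 22.2% and 24.3%. The comparisons share libraries and are not independent of each other.

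Yap1 (chromosome 9, 7931999 to 8004596, minus strand, GRCm38) encodes the co-activator YAP. Its CPM at passages 5, 6 and 10 was 124, 123 and 95.8 in untreated cells, 85.4, 108 and 75.4 in Rspo1 tdTom- cells, and 122, 115 and 110 in Rspo1 tdTom+ cells. The Rspo1 tdTom- value was the lowest of the 3 at each passage, but the ranges of untreated and Rspo1 tdTom- cells overlapped. Rspo1 tdTom- against untreated cells gave a difference of -0.35 log2 units (SE 0.16, adjusted p = 0.136), which became a call with passage as a block (adjusted p = 0.046, edgeR) and changed sign with the offset for GC and length, at 0.09 (adjusted p = 0.716). Rspo1 tdTom+ against Rspo1 tdTom- cells gave 0.37 (SE 0.16, adjusted p = 0.112; with the passage block 0.031, edgeR), and -0.15 with the offset (adjusted p = 0.515). Rspo1 tdTom+ and untreated cells differed by 0.02 (SE 0.16, adjusted p = 0.976, edgeR).

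Wwtr1 (chromosome 3, 57455649 to 57575910, minus strand) encodes TAZ, the paralogue of YAP. Untreated cells had 36.0, 34.3 and 36.2 CPM at passages 5, 6 and 10, Rspo1 tdTom- cells 25.7, 25.7 and 31.0 CPM, and Rspo1 tdTom+ cells 40.1, 33.0 and 43.2 CPM. All 3 Rspo1 tdTom- values lay below all 6 others. The difference from Rspo1 tdTom+ cells was called, at 0.50 log2 units (SE 0.14, adjusted p = 0.028, edgeR), with higher values at 3 of 3 passages. The call was lost without the Rspo1 tdTom+ library of passage 5 or 10 or the Rspo1 tdTom- library of passage 5 or 6 (adjusted p up to 0.106, edgeR). With the GC and length offset the sign turned and the call ended (-0.06, adjusted p = 0.828). The difference from untreated cells was -0.37 (SE 0.14, adjusted p = 0.083; with the passage block 0.028, edgeR), and 0.11 with the offset (adjusted p = 0.691). Wwtr1 has the lowest GC content of the members, 43.9% against a median of 49.9% for all genes tested, and Yap1 has 45.2%.

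The balance between both co-activators did not separate the groups. On the FPKM scale Yap1 made up 73.9 ± 3.25% of Yap1 plus Wwtr1 in untreated cells, 74.0 ± 5.25% in Rspo1 tdTom- cells and 72.7 ± 3.13% in Rspo1 tdTom+ cells (SD, n = 3), and the ranges of the 3 groups overlapped.

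Tead1 (chromosome 7, 112679318 to 112906807, plus strand) encodes a TEAD transcription factor. Its CPM at passages 5, 6 and 10 was 63.3, 55.7 and 87.4 in untreated cells. It was 26.6, 35.4 and 24.8 in Rspo1 tdTom- cells and 80.3, 70.4 and 78.3 in Rspo1 tdTom+ cells. The Rspo1 tdTom- libraries were thus low at all 3 passages and did not overlap either other group, while the untreated and Rspo1 tdTom+ ranges overlapped. Tead1 fell in Rspo1 tdTom- against untreated cells by 1.25 on the log2 scale (SE 0.19, adjusted p = 0.002, edgeR) and was 1.40 higher in Rspo1 tdTom+ than in Rspo1 tdTom- cells (SE 0.19, adjusted p = 0.002, edgeR). With the GC and length offset both differences were smaller and still called, at -0.61 (adjusted p = 0.025) and 0.70 (adjusted p = 0.017). Both calls held under all 17 alternatives of the fit. Rspo1 tdTom+ and untreated cells differed by 0.15 (SE 0.19, adjusted p = 0.778, edgeR).

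Tead4 (chromosome 6, 128224288 to 128300823, minus strand) encodes a second TEAD factor. It had 25.0, 25.7 and 36.1 CPM in untreated, 23.8, 33.3 and 35.3 in Rspo1 tdTom- and 27.6, 31.1 and 37.4 in Rspo1 tdTom+ cells. All groups overlapped, and no comparison between groups passed (log2 fold changes 0.06 to 0.15). With the passage block and the offset together, the difference between Rspo1 tdTom+ and Rspo1 tdTom- cells was called (0.34, adjusted p = 0.044, edgeR).

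The family of 4 TEAD genes changed in make-up. Tead1 held 23.8 ± 1.44% of the summed TEAD FPKM in untreated cells, 9.93 ± 2.04% in Rspo1 tdTom- cells and 23.2 ± 2.22% in Rspo1 tdTom+ cells (SD, n = 3). The share of Tead2 was 14.3 ± 1.76%, 26.7 ± 4.94% and 20.2 ± 1.49% in the same order. Tead3 held 25.2% to 29.6% and Tead4 31.4% to 33.8% as group means. Tead2 rose against untreated cells in both Rspo1 groups, by 0.94 on the log2 scale in Rspo1 tdTom- cells (SE 0.15, adjusted p = 0.002, edgeR) and by 0.72 in Rspo1 tdTom+ cells (SE 0.15, adjusted p = 0.018, edgeR), and both calls held with the offset (0.66 and 0.68). In untreated cells Tead1 was therefore the larger of these 2 in each library, and in Rspo1 tdTom- cells Tead2 was. The shares themselves carry no offset, and Tead1 has a GC content of 46.5% and Tead2 of 57.9%.

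**Figure D3:**
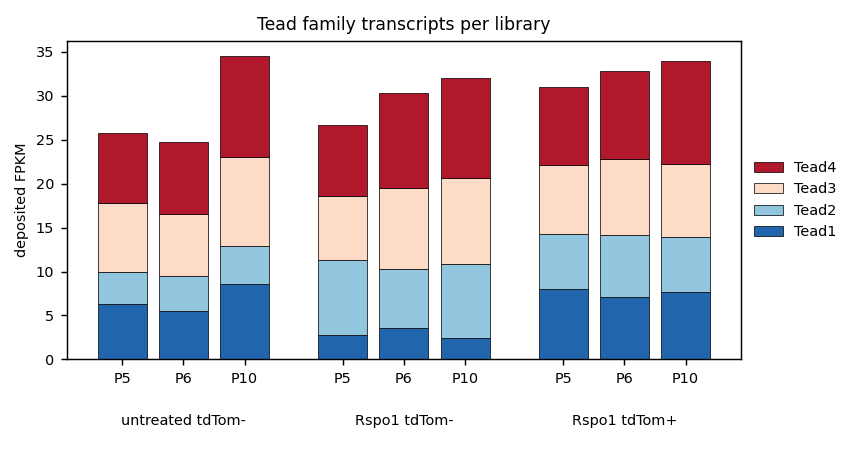
Deposited FPKM of Tead1 to Tead4 stacked for each of the 9 libraries, ordered by group and passage (P). The lowest segment, Tead1, is thin in the 3 Rspo1 tdTom- libraries, where the Tead2 segment is thick.

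Cyr61 (chromosome 3, 145646976 to 145649981, minus strand) encodes CCN1, a matrix-associated signalling protein and an early-responding YAP target. Its level was 76.3, 67.6 and 54.3 CPM in untreated cells at passages 5, 6 and 10. It was 123, 94.0 and 128 CPM in Rspo1 tdTom- cells and 178, 123 and 155 CPM in Rspo1 tdTom+ cells. Every Rspo1 library exceeded every untreated one, and at each passage the order was untreated, Rspo1 tdTom-, Rspo1 tdTom+. Rspo1 tdTom+ cells lay 1.20 log2 units above untreated cells (SE 0.19, adjusted p = 0.004, edgeR), which is 2.30-fold, and the call held under all 17 alternatives. Rspo1 tdTom- cells exceeded untreated cells by 0.80 (SE 0.19, adjusted p = 0.014, edgeR), or 1.74-fold. That call was lost with the offset, at 0.51 (adjusted p = 0.101), and without the Rspo1 tdTom- library of passage 10 (adjusted p = 0.052, edgeR). The difference of 0.40 between Rspo1 tdTom+ and Rspo1 tdTom- cells did not pass (SE 0.18, adjusted p = 0.140, edgeR), although it was positive at 3 of 3 passages, and it passed with the offset (0.68, adjusted p = 0.040).

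Ankrd1 (chromosome 19, 36111961 to 36120099, minus strand) encodes a stress-responsive ankyrin repeat protein of nucleus and cytoplasm. Untreated cells had 94.5, 78.8 and 114 CPM at passages 5, 6 and 10, Rspo1 tdTom- cells 71.6, 70.7 and 88.4 CPM, and Rspo1 tdTom+ cells 136, 160 and 169 CPM. All Rspo1 tdTom+ values lay above all 6 others, whereas untreated and Rspo1 tdTom- values overlapped. The gene was 1.01 higher on the log2 scale in Rspo1 tdTom+ than in Rspo1 tdTom- cells (SE 0.16, adjusted p = 0.003, edgeR), 2.02-fold, and the call held under all 17 alternatives, the offset included (1.04). Against untreated cells it rose by 0.70 (SE 0.16, adjusted p = 0.035, edgeR), 1.62-fold. That call was lost without the untreated library of passage 5 or 6 or the Rspo1 tdTom+ library of passage 6 or 10, with an adjusted p of up to 0.140, and when the Rspo1 tdTom- libraries were left out of the fit. Rspo1 tdTom- against untreated cells gave -0.32 (SE 0.16, adjusted p = 0.192, edgeR), called in the fit with both passage block and offset (-0.38, adjusted p = 0.046).

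Ctgf (chromosome 10, 24595442 to 24598683, plus strand) did not follow either of them. It had 1613, 1643 and 2290 CPM in untreated cells, 2052, 1976 and 3583 CPM in Rspo1 tdTom- cells, and 1756, 1335 and 2665 CPM in Rspo1 tdTom+ cells. Passage 10 was the highest in every group, and all 3 groups overlapped. At each passage the Rspo1 tdTom- value was the highest of the 3. Log2 fold changes were 0.46 for Rspo1 tdTom- against untreated cells (SE 0.30, adjusted p = 0.312), 0.05 for Rspo1 tdTom+ against untreated cells (SE 0.30, adjusted p = 0.962) and -0.40 for Rspo1 tdTom+ against Rspo1 tdTom- cells (SE 0.30, adjusted p = 0.365), all by edgeR. With passage as a block the first and last remained uncalled (adjusted p = 0.066 and 0.070, edgeR). The annotated antisense gene Gm15270 shares 23.2% of the exon bases of Ctgf and had 11423 to 24776 counts per library. Whether counting used strand is not given in the sources used here, so reads of both genes cannot be told apart with certainty.

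In the authors' deposited table, made with DESeq2, the Ctgf differences had adjusted p-values of 0.025 for Rspo1 tdTom- against untreated cells (log2 fold change 0.43) and 0.001 for Rspo1 tdTom+ against Rspo1 tdTom- cells (-0.43). That deposited table gave 2, 4 and 7 members an adjusted p under 0.05 in the 3 comparisons, where 14.7%, 29.3% and 45.8% of its genes with an adjusted p were under it. Besides Ctgf, the members added there were Yap1 (0.37, adjusted p = 0.017) and Cyr61 (0.38, adjusted p = 0.006) in the authors' deposited comparison of Rspo1 tdTom+ with Rspo1 tdTom- cells.

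Amotl2 (chromosome 9, 102716672 to 102733418, plus strand) encodes an angiomotin family protein that binds YAP and is itself a YAP target. It had 112, 103 and 122 CPM in untreated, 79.0, 86.0 and 116 CPM in Rspo1 tdTom-, and 114, 92.2 and 122 CPM in Rspo1 tdTom+ cells. The groups overlapped and no difference passed (log2 fold changes -0.26, -0.04 and 0.23 for tdTom- against untreated, tdTom+ against untreated and tdTom+ against tdTom- cells). The fit with both block and offset called the first and last, at -0.41 (adjusted p = 0.021) and 0.33 (adjusted p = 0.045, edgeR). Its relative Amot fell in Rspo1 tdTom- against untreated cells by 1.35 (SE 0.21, adjusted p = 0.002, edgeR). On the FPKM scale Amotl2 made up 64.8 ± 4.99%, 73.0 ± 4.66% and 69.5 ± 4.01% of the 3 angiomotin genes in untreated, Rspo1 tdTom- and Rspo1 tdTom+ cells (SD, n = 3). These shares carry no offset, and the GC content was 46.7% for Amot, 51.4% for Amotl1 and 56.7% for Amotl2.

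Lats2 (chromosome 14, 57689662 to 57758388, minus strand) encodes one of the 2 kinases that phosphorylate YAP and TAZ. Its CPM was 26.6, 27.1 and 24.7 in untreated cells, 14.0, 18.8 and 20.0 in Rspo1 tdTom- cells, and 26.8, 22.2 and 25.7 in Rspo1 tdTom+ cells. All 3 Rspo1 tdTom- values were below the others. Lats2 fell in Rspo1 tdTom- against untreated cells by 0.57 on the log2 scale (SE 0.16, adjusted p = 0.031, edgeR; with the offset -0.53, adjusted p = 0.047) and was 0.50 higher in Rspo1 tdTom+ than in Rspo1 tdTom- cells (SE 0.16, adjusted p = 0.047, edgeR; with the offset 0.42, adjusted p = 0.097). The first call was lost on leaving out any of 5 libraries (untreated passage 5 or 6, Rspo1 tdTom- passage 5 or 10, Rspo1 tdTom+ passage 5), with an adjusted p of up to 0.101, and the second on leaving out any of 8, with an adjusted p of up to 0.152. The same-strand gene model Gm49361 shares 42.4% of the exon bases of Lats2 and had 306 to 815 counts, so reads could have been divided between them or left uncounted. In Rspo1 tdTom- against untreated cells Gm49361 differed by -0.60 (SE 0.20, adjusted p = 0.053, edgeR). Between Rspo1 tdTom+ and Rspo1 tdTom- cells the difference of Gm49361 was 0.62 (SE 0.20, adjusted p = 0.044, edgeR). Lats1, the partner kinase gene, fell by 1.36 in Rspo1 tdTom- against untreated cells (SE 0.19, adjusted p = 0.002, edgeR; with the offset -0.61). Lats2 made up 35.2 ± 4.68%, 48.3 ± 5.77% and 33.9 ± 2.41% of Lats1 plus Lats2 FPKM in untreated, Rspo1 tdTom- and Rspo1 tdTom+ cells (SD, n = 3). These shares carry no offset, and Lats1 has a GC content of 43.0% and Lats2 of 52.2%. With the offset, Rspo1 tdTom- cells differed from untreated cells by -0.61 for Lats1 and -0.53 for Lats2.

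Ajuba (chromosome 14, 54567472 to 54577558, minus strand) encodes a LIM-domain scaffold that binds LATS kinases and limits their activity. It had 180, 210 and 194 CPM in untreated, 168, 205 and 233 CPM in Rspo1 tdTom-, and 152, 175 and 180 CPM in Rspo1 tdTom+ cells. The Rspo1 tdTom+ value was the lowest at each passage, but the groups overlapped and no difference passed (-0.20 against untreated cells, adjusted p = 0.562, and -0.26 against Rspo1 tdTom- cells, adjusted p = 0.234, edgeR). With the offset the second was 0.00. Rspo1 tdTom- against untreated cells gave 0.05, and -0.25 with the offset (adjusted p = 0.262, edgeR), uncalled in both.

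**Figure D4:**
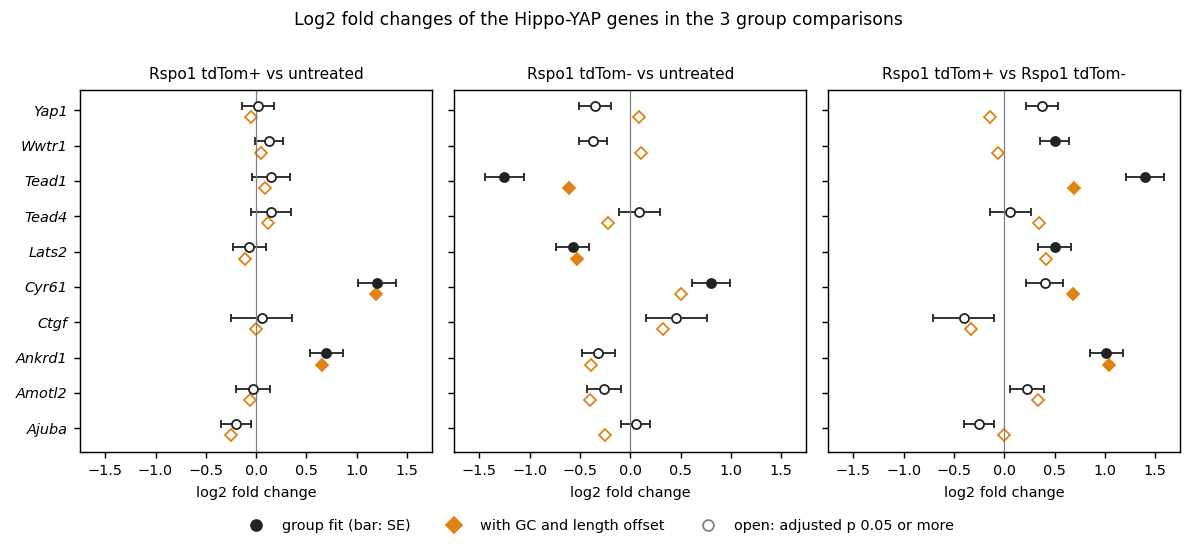
Log2 fold changes of the 10 members in the 3 comparisons between groups (bar: SE of the group fit). Black circles are the fit on groups, orange diamonds the fit with a GC and length offset, and open symbols have an adjusted p of 0.05 or more. The circles and diamonds lie close together for Rspo1 tdTom+ against untreated cells and apart for Tead1, Wwtr1 and Yap1 in the comparisons that involve Rspo1 tdTom- cells.

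The upstream arm of the pathway was followed in a list of 18 Hippo kinases and upstream regulators, of which 16 passed the filter. In Rspo1 tdTom- against untreated cells 8 of the 16 fell and 0 rose, against 13.9% and 8% of all genes. The median log2 fold change was -0.45, against -0.02 for all genes. The largest falls were those of Taok1, a kinase that activates the Mst kinases (-1.73, SE 0.16), Mob1b, an adaptor of the Lats kinases (-1.63, SE 0.18), and Lats1. With the GC and length offset 4.59% of all genes fell. Of the 16, 3 fell, Taok1 (-0.64), Lats1 (-0.61) and Mob1b (-0.51), and the median was -0.25. The GC contents of these 3 genes were 40.6%, 43.0% and 37.9%. Rspo1 tdTom+ exceeded Rspo1 tdTom- cells for 8 of the 16, led by Taok1 (1.63), Mob1b (1.46) and Lats1 (1.36), and with the offset for 1, Taok1 (0.49). Of all genes, 14.6% were higher there, and 3.69% with the offset. Between Rspo1 tdTom+ and untreated cells edgeR called 0 of the 16 (1 at an unadjusted p under 0.05, and 0 by DESeq2), with a median of -0.03. Of all genes, edgeR called 5.21% there. With the passage block 1 rose, Frmd6, an upstream membrane scaffold (0.53, adjusted p = 0.037, edgeR), and 6.44% of all genes rose.

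A further list held 9 other partners and binding regulators of YAP, TAZ and TEAD. In Rspo1 tdTom- against untreated cells 3 rose and 1 fell, against 8% and 13.9% of all genes. The rises were Tead2, Vgll4, a TEAD-binding competitor of YAP (0.82, SE 0.17, adjusted p = 0.008), and Wtip, a relative of Ajuba (0.68, SE 0.20, adjusted p = 0.036), and the fall was Amot, all by edgeR. With the offset, Tead2 and Amot (-0.88) were still called, and Vgll4 (0.47) and Wtip (0.21) were not. Of all genes, 4.21% then rose and 4.59% fell. Rspo1 tdTom+ exceeded Rspo1 tdTom- cells for Amot (0.67) and lay below them for Wtip (-0.64), both uncalled with the offset (0.12 and -0.25). Of all genes, 14.6% were higher and 9.78% lower without the offset. In Rspo1 tdTom+ against untreated cells, where 3.07% of all genes rose and 2.13% fell, Tead2 rose and the other 8 did not pass. Among these, Amot (-0.69, SE 0.20, adjusted p = 0.088) was called lower with the offset (-0.76, adjusted p = 0.038) and with the passage block (-0.66, adjusted p = 0.008), and Vgll4 (0.59, SE 0.17, adjusted p = 0.079) was called higher with the passage block (0.59, adjusted p = 0.020), all by edgeR. DESeq2 called 2 higher and 1 lower, against 4.47% and 4.39% of all genes.

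Of 16 further YAP and TAZ target genes known from other tissues, 15 passed the filter. In Rspo1 tdTom- against untreated cells 1 rose and 5 fell, against 8% and 13.9% of all genes. The median log2 fold change was -0.27, against -0.02 for all genes. The falls included Crim1, a transmembrane protein that binds bone morphogenetic proteins (-0.99, SE 0.13), Asap1, a regulator of Arf GTPases (-0.93, SE 0.16), and Dock5, an activator of Rac (-0.70, SE 0.20). With the offset Crim1 (-0.79) and Asap1 (-0.63) were still called and Dock5 (-0.24) was not. The list then had 1 rise and 3 falls, against 4.21% and 4.59% of all genes. In Rspo1 tdTom+ against untreated cells 1 rose and 1 fell, against 3.07% and 2.13% of all genes. The fall was that of F3, the initiator of blood coagulation (-0.74, SE 0.14, adjusted p = 0.013, edgeR). The gene that rose in both comparisons was Ccdc80, a secreted matrix protein with 1 to 3 counts in each untreated library. It passed the filter on low counts only through the Rspo1 libraries, so its 2 calls are a description and not a test. Against a floor of 3 counts per library it was at least 12.5-fold higher in Rspo1 tdTom- and at least 22.3-fold higher in Rspo1 tdTom+ cells, at a low absolute level of 1.16 ± 0.373 and 2.08 ± 0.824 CPM (SD, n = 3). With Ccdc80 set at these bounds the medians of the list stayed at -0.27 and -0.09. Rspo1 tdTom+ exceeded Rspo1 tdTom- cells for Rbms3, Asap1 and Crim1 (1.25, 0.84 and 0.72) and lay below them for Fjx1 (-0.59), and with the offset Crim1 (0.47) was still called while Rbms3 (0.27), Asap1 (0.48) and Fjx1 (-0.31) were not. In this comparison 14.6% of all genes were higher and 9.78% lower (3.69% and 4.84% with the offset). With the passage block the list had 6 higher and 1 lower, against 21.5% and 17.4% of all genes.

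Immediate early genes respond to dissociation and stress, as Cyr61 and Ankrd1 can, and proliferation genes moved with the groups, so both lists were read beside these 2 members. The 12 immediate early genes summed to 842 to 1429 CPM in untreated, 897 to 1247 CPM in Rspo1 tdTom- and 1075 to 2276 CPM in Rspo1 tdTom+ cells. The list includes the heat shock genes Hspa1a (group means 63.4, 48.9 and 30.2 CPM in this order) and Hspa1b (175, 108 and 87.1 CPM). Of the 12, 0 rose and 1 fell (Hspa1b) in Rspo1 tdTom+ against untreated cells. In Rspo1 tdTom- against untreated cells 1 rose (Ier3) and 0 fell. Higher in Rspo1 tdTom+ than in Rspo1 tdTom- cells were 3, Fosb (3.39), Fos (1.80) and Zfp36 (0.97). Of all genes, 3.07% were higher and 2.13% lower in the first comparison, 8% and 13.9% in the second, and 14.6% and 9.78% in the third. In the first comparison 10 of the 12 had an unadjusted p under 0.05 and the median log2 fold change was 0.84. With passage as a block, 8 of the 12 rose and 2 fell there, among them Fos (1.72, adjusted p = 1.94e-05), Fosb (3.61, adjusted p = 1.56e-05), Egr1 (2.49, adjusted p = 2.24e-05) and Jun (1.27, adjusted p = 0.000766, edgeR). DESeq2 called 5 higher and 2 lower, against 4.47% and 4.39% of all genes. The block also gave 2 higher and 1 lower in Rspo1 tdTom- against untreated cells, and 5 higher and 1 lower in Rspo1 tdTom+ against Rspo1 tdTom- cells. With the GC and length offset these counts were 0 higher and 1 lower, and 3 higher and 0 lower. Block and offset together gave 0 higher and 3 lower, and 8 higher and 0 lower. The shares of all genes called were 35.5% and 38.9% with the block, 8.8% and 8.53% with the offset, and 22.2% and 24.3% with both. The 10 proliferation genes summed to 119 to 199 CPM in untreated, 292 to 299 CPM in Rspo1 tdTom- and 629 to 881 CPM in Rspo1 tdTom+ cells, an order without overlap that is also the order of the group means of Cyr61. Of these, 9 rose in Rspo1 tdTom+ against untreated cells and 5 in Rspo1 tdTom- against untreated cells, and 6 were higher in Rspo1 tdTom+ than in Rspo1 tdTom- cells (10, 9 and 8 with the passage block). The shares of all genes that were higher were 3.07%, 8% and 14.6%, and 6.44%, 15.5% and 21.5% with the block. With the offset 10, 4 and 5 of the list were higher, against 3.28%, 4.21% and 3.69% of all genes. The part of either list in the values of Cyr61 and Ankrd1 was not tested.

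Passage was compared in a fit with group and passage, each passage holding 1 library of every group. From passage 5 to passage 10, 2 of the 10 members rose, against 9.07% of all genes called (4.57% higher and 4.5% lower; 12.4% called with the offset). Ctgf rose by 0.64 on the log2 scale (SE 0.16, adjusted p = 0.035, edgeR), with 0.51, 0.80 and 0.60 in untreated, Rspo1 tdTom- and Rspo1 tdTom+ cells. Its overlapping antisense gene Gm15270 rose by 0.66 (SE 0.14, adjusted p = 0.018, edgeR). Tead4 rose by 0.51 (SE 0.12, adjusted p = 0.029, edgeR), with 0.53, 0.57 and 0.44 in the same groups. The calls of Ctgf and Tead4 held with the offset and were lost in some of the fits with 1 library left out. In those fits the log2 fold change was 0.43 to 0.55 for Tead4 and 0.54 to 0.74 for Ctgf. The share of all genes called ranged from 2.32% to 20.6%. Tead4 was uncalled without any of the 6 libraries of passage 5 or 10, and Ctgf without any library of passage 5 or the Rspo1 tdTom- or Rspo1 tdTom+ library of passage 10 (adjusted p up to 0.177 and 0.197, edgeR). Ankrd1 (0.30), Amotl2 (0.26), Ajuba (0.28) and Wwtr1 (0.13) had positive differences in 3 of 3 groups without passing. Yap1 was lower in 3 of 3 groups and did not pass either (-0.23, SE 0.12, adjusted p = 0.255, edgeR). Axin2 was 1.48 higher at passage 10 (SE 0.24, adjusted p = 0.004, edgeR).

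Between passages 6 and 5 edgeR called 0 of the 10 members, against 2.49% of all genes (1.16% higher and 1.33% lower), with 1 at an unadjusted p under 0.05 (Cyr61, -0.36, SE 0.15, adjusted p = 0.261) and 0 by DESeq2. Among the other targets, Igfbp3, a binding protein of insulin-like growth factors, and Axl, a receptor tyrosine kinase, fell from passage 5 to passage 10 (-1.73, SE 0.21, and -1.25, SE 0.22) and to passage 6 (-1.41 and -1.21). Nuak2, a kinase that promotes YAP activity, was called higher at passage 10 (0.59, SE 0.16, adjusted p = 0.048, edgeR), a call lost with the offset (0.53, adjusted p = 0.054) and with DESeq2 size factors. At passage 6 it was 0.69 higher (adjusted p = 0.056; with the offset 0.046, edgeR). Of the 12 immediate early genes, 6 fell to passage 10 and 5 to passage 6, against 4.5% and 1.33% of all genes. The part of this list in the passage differences of the members was not tested. Both Rspo1 groups of a passage are sort gates of the same cultures, so the libraries of a passage are not independent cultures. The p-values of the passage fit therefore do not measure spread between cultures within a passage. Passage and culture day cannot be told apart.

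**Figure D5:**
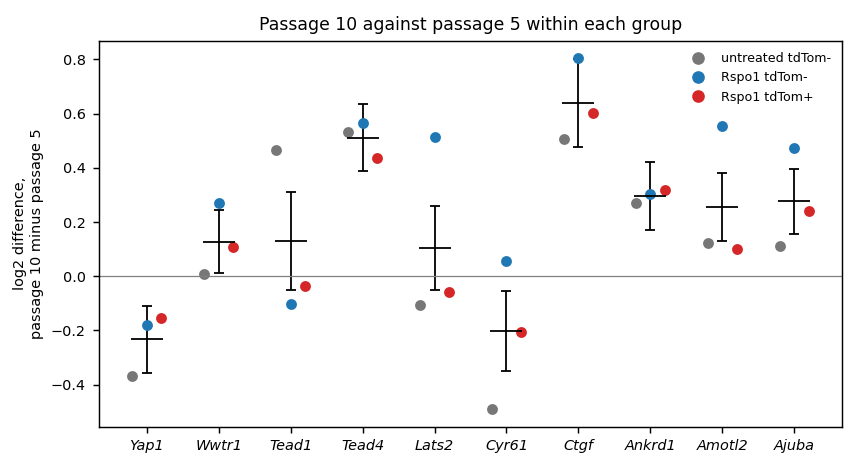
Log2 difference between passage 10 and passage 5 for each member within each of the 3 groups (points) and the fitted value with its SE (black). Ctgf and Tead4 lie above 0 in all 3 groups, with fitted values of 0.64 and 0.51, and Tead1 and Lats2 have points on both sides of 0.

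The genes whose log2 CPM profile over the 9 libraries lay closest to that of a member were ranked by the root mean square difference of centred values among 11661 genes. For Cyr61 they were Pola2, E2f1, Mcm7 and Tipin (0.13, 0.15, 0.15 and 0.16 log2 units), and the closest other member was Ankrd1 at 0.54. For Ctgf they were the overlapping antisense gene Gm15270 (0.05), then Pfkm, Rusc1 and Zbtb22 (0.10, 0.10 and 0.15), and the closest member was Tead4 at 0.33. Yap1 lay closest to Bfar, Atp2c1, Bace1 and Polr3b (0.06 to 0.07), and the closest member was Lats2 at 0.22. The profiles share libraries, depth and base composition, and the likeness is a description only.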

How the data were processed

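RNA-seq libraries (single-end 75 bp, 100 ng total RNA) of 9 sorted samples were analysed. The authors deposited raw counts per gene and FPKM for each library, per the file headers; the submitters' processing notes name Trimmomatic 0.35, FastQC 0.11.2, STAR 2.5.1b, featureCounts and DESeq2 with GRCm38, and the strand setting and annotation are not given in the sources used here. The authors' deposited comparison tables hold log2 fold changes and p-values. The mean signal per gene and the test score in those deposited tables, per the file headers, were not used.

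Counts were tested with edgeR 4.0.16 (R 4.3.3): genes kept by filterByExpr (count minimum 10, total 15; 17011 genes), TMM, 1 fit on group over 9 libraries, Benjamini-Hochberg over all genes. SE is the log2 fold change divided by the square root of F. Passages used group plus passage. The labels give the passage of each replicate, which pairs the libraries: deviations from group means correlated at 0.12 to 0.57 in 9 pairs of the same passage and at -0.48 to 0.08 in 18 pairs of different passages. Alternatives were a passage (replicate) block, DESeq2 1.42.0, DESeq2 size factors, upper-quartile scaling, no filter, only the 6 libraries compared, a GC and length offset (natural splines with 5 degrees of freedom on the longest GENCODE M21 transcript, per library), and each library left out. Scripts were tested on simulated counts.

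The members and all gene lists were chosen with earlier results of these data known. Named were all members, Axin2, up to 3 rises and 3 falls of each pathway list, and the 4 closest profiles to Cyr61, Ctgf and Yap1; genes outside the rule (Frmd6 and single list members) were chosen after their values were seen.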

Additional observations from a re-analysis of the deposited data

How the results depend on the processing

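Over the 10 members, 5 comparisons and all alternatives, 692 of 790 values kept their sign and call, 42 lost a call, 11 gained one and 45 changed sign. Of the 45, 43 were called in neither fit, and 20 came with the GC and length offset, alone or with the block. These include Yap1 and Wwtr1 in Rspo1 tdTom- against untreated cells (0.09 and 0.11 with the offset), Yap1 in Rspo1 tdTom+ against Rspo1 tdTom- cells (-0.15), and Tead4 and Ajuba in Rspo1 tdTom- against untreated cells (-0.23 and -0.25). The other 2 were a called value, that of Wwtr1 in Rspo1 tdTom+ against Rspo1 tdTom- cells, at -0.062 with the offset and -0.056 with the replicate block plus offset. With the replicate block, 5 members were called in Rspo1 tdTom- against untreated cells (5 also with block and offset), 3 without it. The shares of all genes called were 35.5%, 22.2% and 21.9%. In Rspo1 tdTom+ against Rspo1 tdTom- cells the counts were 5, 6 and 4 members. There the shares of all genes were 38.9%, 24.3% and 24.3%. Only the 6 libraries compared left 1 call in Rspo1 tdTom+ against untreated cells, and no filter left 2 in Rspo1 tdTom+ against Rspo1 tdTom- cells. These settings called 4.09% and 13.7% of all genes there. With 1 library left out, calls ranged from 1 to 2 (Rspo1 tdTom+ against untreated), 1 to 3 (Rspo1 tdTom- against untreated), 2 to 4 (Rspo1 tdTom+ against Rspo1 tdTom-), 0 to 3 (passage 10 against 5) and 0 to 1 (passage 6 against 5). The shares of all genes called in these fits were 2.23% to 5.19%, 10.3% to 21.6% and 11.8% to 26.3% in the group comparisons. They were 2.32% to 20.6% and 0.6% to 4.84% in the passage comparisons, in the same order. The cause of the changes between settings was not tested.

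Over all genes, calls numbered 886, 3724 and 4141 in the 3 group comparisons (tdTom+ against untreated, tdTom- against untreated, tdTom+ against tdTom-), 2247, 6039 and 6624 with the block, and 1133, 1497 and 1451 with the offset. The share of higher calls in Rspo1 tdTom- against untreated cells was 36.5%, 49.5% with upper-quartile scaling and 47.8% with the offset. In Rspo1 tdTom+ against Rspo1 tdTom- cells it was 59.8%, and 43.3% with the offset. Cultures of 1 animal and 3 libraries per group limit all tests.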
